A study of Mus musculus with 6 samples.

Results

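The open regions around 3 genes of the N6-methyladenosine (m6A) writer complex, Mettl3, Mettl14 and Wtap, were compared between mouse embryonic stem cells with different alleles of the m6A demethylase gene Alkbh5. Members were the ATAC-seq peaks that overlap 1 window per gene on build GRCm39. A gene's own peaks and those of its neighbours both fall in a window. The windows were chr14:52490000-52590000 for Mettl3, chr3:123100000-123240000 for Mettl14 and chr17:13140000-13260000 for Wtap. They held 282 of the 1007167 mouse peaks in the 6 peak lists. Merging peaks with an overlap of 1 bp or more gave 69 member regions (20 for Mettl3, 27 for Mettl14 and 22 for Wtap) of 259376 mouse regions in all.

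ATAC-seq marks open chromatin with a transposase that cuts accessible DNA and inserts sequencing adapters. The 6 libraries came from E14TG2a cells, an established male mouse stem cell line, grown with serum (15%), LIF (1000 U/ml), the MEK inhibitor PD0325901 (1 µM) and the GSK3 inhibitor CHIR99021 (3 µM). There were 2 libraries each of Alkbh5 KO cells, of Alkbh5 del-cIDR cells, whose allele lacks the segment called cIDR (IDR stands for intrinsically disordered region), and of WT cells. All libraries also received spike-in nuclei, and their peaks were left out. The labels do not say how many clones stand behind a genotype or that replicates are separate cultures, so a genotype cannot be told apart from its cell line, and the spread between replicates may be technical.

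m6A is the most common internal modification of messenger RNA. METTL3 is the catalytic subunit of the writer, METTL14 is its partner, which holds the RNA and stabilises METTL3, and WTAP is the adaptor that brings the pair to nuclear speckles. ALKBH5, the protein changed in the mutants, removes m6A, and in embryonic stem cells the mark is known for shortening the life of pluripotency transcripts. In the RefSeq gene order, Mettl3 lies between Tox4 and Sall2, Mettl14 between Sec24d and Prss12, and Wtap between Acat2 and Sod2, counting protein-coding genes. The RefSeq tables used here are on GRCm38.p6, so no peak was assigned to a gene start, and peaks in a window may belong to a neighbour. For the same reason, Alkbh5 itself and stem cell markers were not located in the lists, and the labels were not checked in that way.

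The RefSeq promoter entries of Mettl3 and Wtap (GRCm38.p6, minus strand of chromosomes 14 and 17, 250 bases before to 50 after the start) are shown because they are the stretches from which transcription of 2 of the writers begins. Of 12 motifs searched on both strands, capitals mark the matches to CCGGAAG (an ETS factor site), CCAAT (an NF-Y site) and GGGCGG (a GC box, CCGCCC on the other strand).
Mettl3: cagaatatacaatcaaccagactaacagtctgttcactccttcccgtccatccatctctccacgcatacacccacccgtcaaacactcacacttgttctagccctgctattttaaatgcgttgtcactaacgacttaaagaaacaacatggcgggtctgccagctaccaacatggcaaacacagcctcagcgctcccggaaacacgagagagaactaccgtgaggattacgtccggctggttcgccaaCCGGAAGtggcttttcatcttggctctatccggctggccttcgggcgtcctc
Wtap, entry 1: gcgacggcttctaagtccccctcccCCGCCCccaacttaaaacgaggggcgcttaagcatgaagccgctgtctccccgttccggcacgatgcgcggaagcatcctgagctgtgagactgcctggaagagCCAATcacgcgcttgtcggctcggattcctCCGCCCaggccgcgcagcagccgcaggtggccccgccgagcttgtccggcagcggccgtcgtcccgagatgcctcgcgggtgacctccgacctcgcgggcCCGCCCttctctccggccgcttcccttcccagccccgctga
Wtap, entry 2: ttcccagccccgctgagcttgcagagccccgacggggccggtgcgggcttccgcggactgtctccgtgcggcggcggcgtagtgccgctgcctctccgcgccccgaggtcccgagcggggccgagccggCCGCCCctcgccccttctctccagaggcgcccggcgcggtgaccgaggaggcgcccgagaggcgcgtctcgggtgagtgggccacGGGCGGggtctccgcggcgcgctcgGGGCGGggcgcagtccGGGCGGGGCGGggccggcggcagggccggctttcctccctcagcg

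The Mettl3 entry held CCGGAAG, which 8.86% of the 32851 promoter entries held, and no CCAAT or GGGCGG. Its GC content was 52.0%, against a median of 52.7% over all entries. Wtap entry 1 held CCAAT (37.4% of all entries) and 3 copies of GGGCGG (35.7% of all entries). Wtap entry 2 held 5 copies of GGGCGG, 2 of which overlap by 1 base, and its GC content of 80.3% was at or above that of 99.2% of entries. Another Wtap entry overlaps entry 1 over nearly all of its length and is not shown. These matches describe the letters only, and they were not tied to a peak.

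Each writer window held more open regions than most stretches of its length, and most lettered regions described below lie in the Mettl3 and Wtap windows. Bins of 100 kb across the autosomes held a median of 8 regions, and 87.0% of them held no more than the 20 of the Mettl3 window. For bins of 140 kb the median was 12, with 85.4% at or below the 27 of Mettl14, and for bins of 120 kb it was 10, with 82.7% at or below the 22 of Wtap. A region was called in all 6 libraries at 11 of 20 positions for Mettl3 and 11 of 22 for Wtap, but at 6 of 27 for Mettl14. The sum of these was 28 of 69 (40.6%), near the 38.3% of all mouse regions. The longest stretches with no call in any library were 11573 bp in the Mettl3 window, 16237 bp in the Mettl14 window and 19876 bp in the Wtap window. The remaining 41 regions were low, with no summit above 28 tags, and 14 of them were called in 1 library only, which is 20.3% of the members, against 25.2% of all regions. Peaks in the Mettl14 window numbered 11 and 14 in the KO libraries, 14 and 16 in the del-cIDR libraries, and 21 and 17 in the WT libraries. Both WT libraries had more than all 4 mutant libraries there. In the Mettl3 window the numbers were 15 and 15 in KO, 13 and 14 in del-cIDR, and 16 and 16 in WT, and in the Wtap window 16 and 15 in KO, 18 and 15 in del-cIDR, and 18 and 18 in WT. The whole mouse lists were also shorter in the mutants, with 164639 and 150680 peaks in KO, 157931 and 155128 in del-cIDR, and 193905 and 184884 in WT.

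Regions called in all libraries are lettered below by position in each window, Mettl3 A to K, Mettl14 A to F and Wtap A to K. Tag counts at each summit were solved from the deposited fold and p, as whole tags in 100% of peaks, and the background of the lists was 1.01 to 1.26 tags. Intervals on them cover counting error only and are on raw tags, not scaled between lists. For comparison between lists, the median log2 height over 16 autosomes (all but 6, 8 and 11) in the same list was subtracted from each log2 height to give the scaled height; a value of 0 is the typical shared region of the list. With 2 against 2 libraries an exact two-sided test cannot give a p below 0.333, so no test of a single region was made. A difference is called separated where both libraries of one genotype lie beyond both of the other. Over the 99146 regions called in every library on assembled chromosomes (of 99216 in all), KO minus WT had a median of 0.13 log2 and del-cIDR minus WT one of 0.01, and the members are to be read against these shifts. Regions are ranked by the deposited fold, the authors' ratio of summit pileup to local background, and a percentile is the share of mouse peaks in the same list with a fold at or below that of the region. Ranks from lists of different lengths show no change, so percentiles are given by genotype without a comparison.

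**Figure D1:**
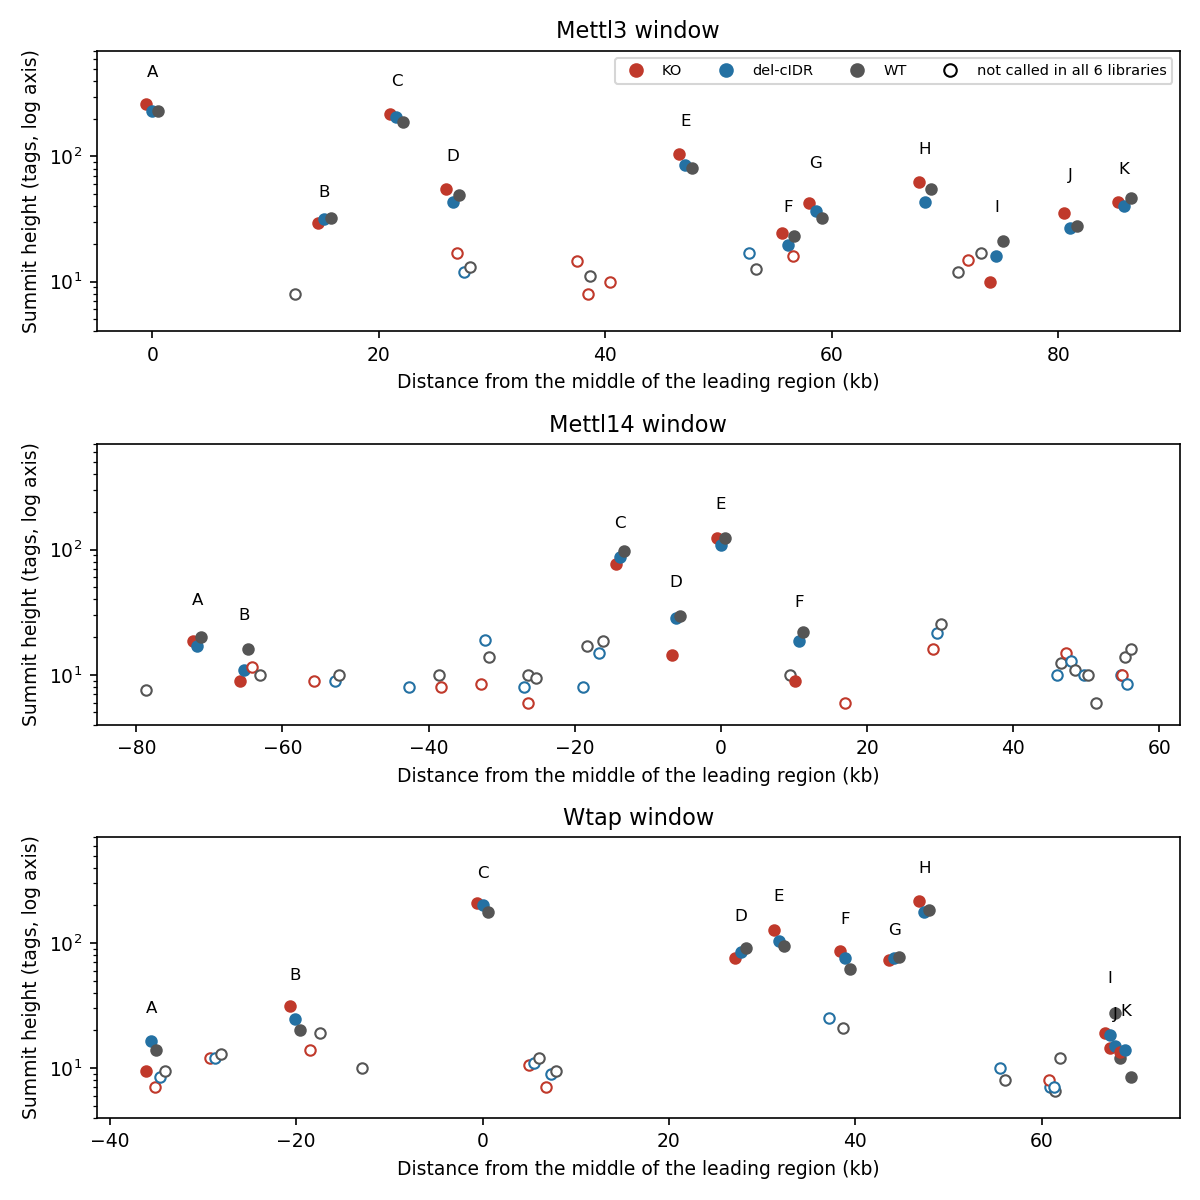
Summit height (tags, log axis) of every member region against its distance in kb from the middle of the leading region of the window; each point is the mean of the calling libraries of a genotype, shifted slightly sideways per genotype. Filled points, with letters, are the 28 regions called in all 6 libraries, and open points, all at 28 tags or less, are the other 41.

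The Mettl3 window held 3 regions above the 90th percentile, and at all of them KO was separated above WT in scaled height. The same held at 59.1% of the 15003 shared regions of the series with a mean percentile of at least 90. Ranked among shared regions only, Mettl3 A stood at 94.5, C at 86.3 and E at 89.1, so only A stayed above 90. The leading one, Mettl3 A at chr14:52494898-52495677, held 298 and 232 tags in the KO libraries, 238 and 227 in del-cIDR, and 213 and 251 in WT. These raw counts overlap, but after scaling both KO libraries lay above both del-cIDR libraries and these above both WT libraries. Scaled height was 3.19 ± 0.03 in KO, 2.88 ± 0.02 in del-cIDR and 2.77 ± 0.05 in WT (SD, n = 2). The difference from WT was 0.43 ± 0.05 log2 in KO and 0.12 ± 0.05 log2 in del-cIDR, where the error is the root of the summed variances of the genotypes compared. The KO difference was 0.23 log2 on the deposited fold and 0.24 log2 when scaled to regions at or above the 90th percentile. The summits lay at 52495289 and 52495350 in KO, at 52495319 and 52495418 in del-cIDR, and at 52495288 and 52495341 in WT, and no genotype's pair lay apart from the others. Its percentile of fold was 97.4 ± 0.336 in KO, 96.5 ± 0.0721 in del-cIDR and 96.3 ± 1.24 in WT (SD, n = 2).

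Mettl3 C, at chr14:52516314-52517389, held 252 and 184 tags in the KO libraries, 198 and 212 in del-cIDR, and 179 and 196 in WT. Mettl3 E, at chr14:52541919-52542834, held 121 and 90 tags in the KO libraries, 92 and 80 in del-cIDR, and 79 and 84 in WT. The summits lay between 52516884 and 52516978 at C, and between 52542504 and 52542607 at E. Both had the order seen at A, with KO highest and WT lowest in scaled height. KO minus WT was 0.44 ± 0.05 log2 at C and 0.60 ± 0.06 log2 at E, and del-cIDR minus WT was 0.24 ± 0.11 log2 at C and 0.18 ± 0.12 log2 at E. The mean deposited fold at C was 17.9 in KO, 18.1 in del-cIDR and 17.2 in WT, so KO was not highest there. At C the fold of KO replicate 2 (17.37) also lay below that of WT replicate 2 (17.41). At E the mean fold kept the order, with 20.2 in KO, 18.3 in del-cIDR and 18.1 in WT. Percentiles at C were 92.1 ± 0.0919 in KO, 92.7 ± 0.569 in del-cIDR and 90.9 ± 0.876 in WT, and at E 95.3 ± 0.698 in KO, 93.0 ± 0.429 in del-cIDR and 92.5 ± 1.46 in WT (SD, n = 2).

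At Mettl3 H, chr14:52563281-52563783, the mutants lay on opposite sides of WT. It held 72 and 54 tags in the KO libraries, 43 and 44 in del-cIDR, and 52 and 58 in WT. Scaled height was 1.12 ± 0.01 in KO, 0.47 ± 0.06 in del-cIDR and 0.69 ± 0.01 in WT (SD, n = 2), and no 2 genotypes overlapped. Its mean percentile, 89.2, is the nearest below the limit of 90, while Mettl3 C at 91.9 is the nearest above it. Mettl3 I, at chr14:52569715-52569944, was the one region of the window where KO was separated below WT. It held 11 and 9 tags in the KO libraries, 17 and 15 in del-cIDR, and 17 and 25 in WT, a KO minus WT difference of -0.81 ± 0.28 log2.

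The other regions, B, D, F, G, J and K, held 18 to 63 tags per library, and KO was separated above WT at all of them but B.

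Over the 11 lettered Mettl3 regions, KO was separated above WT at 9 (40.6%) and below at 1 (20.6%), and del-cIDR above WT at 3 (22.9%) and below at 3 (21.3%), with the share of all shared regions in parentheses. Medians were 0.42 log2 for KO and 0.06 log2 for del-cIDR, against 0.07 and 0.03 over the 3961 shared regions of chromosome 14. The del-cIDR median changed sign, to -0.064 log2, without WT replicate 2, and the KO median was 0.20 log2 on the log2 of the deposited fold. Each of the following calls that split genotypes was 1 of the 12 to 14 Mettl3 regions called in both libraries of the calling genotype. The region at chr14:52547942-52548108 was called in both del-cIDR libraries, with 19 and 15 tags, and in both WT libraries, with 12 and 13, but in no KO library. The region at chr14:52533234-52533531 was called in KO, with 19 and 10 tags, and in WT, with 14 and 8, but in no del-cIDR library.

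The Mettl14 window held the member with the highest fold rank, Mettl14 E at chr3:123179245-123179934. Its deposited fold stood at the 99.8th percentile ± 0.0521 of the KO lists, the 99.7th ± 0.189 of the del-cIDR lists and the 99.8th ± 0.111 of the WT lists (SD, n = 2). Its summit held 147 and 99 tags in the KO libraries, 119 and 100 in del-cIDR, and 123 and 125 in WT. The summits of the 6 libraries lay within 7 bp, from 123179635 to 123179642, against a median spread of 45 bp over the 15003 regions of the series that rank as high as the 90th percentile on average and of 94 bp over the 7 such members. Scaled height was 2.07 ± 0.12 in KO, 1.79 ± 0.15 in del-cIDR and 1.87 ± 0.10 in WT (SD, n = 2). KO was separated above WT by 0.20 ± 0.16 log2, against a median of 0.23 over those 15003 regions. When scaled to them KO and WT overlapped, at 0.018 log2, and they also overlapped when scaled to all shared regions, at 0.15 log2. Leaving out KO replicate 1 gave 0.12 log2, and leaving out WT replicate 2 gave 0.13 log2. The del-cIDR libraries overlapped WT, at -0.08 ± 0.18 log2, which became 0.026 log2 without del-cIDR replicate 2.

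The second tall region of the window, Mettl14 C at chr3:123165441-123166034, ranked at 94.8 ± 2.52 in KO, 95.2 ± 1.18 in del-cIDR and 96.4 ± 1.14 in WT (SD, n = 2). It held 93 and 62 tags in the KO libraries, 84 and 92 in del-cIDR, and 92 and 103 in WT. Among the 7 regions at or above the 90th percentile it was the only one where KO was separated below WT, by -0.12 ± 0.13 log2. Its summits fell at 2 places, near 123165708 in KO replicate 1, del-cIDR replicate 2 and WT replicate 1, and near 123165802 in the other library of each genotype.

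Among the lower lettered regions of the Mettl14 window, B, D and F were separated below WT in KO, as 20.6% of all shared regions were, and at D and F del-cIDR stayed nearer to WT. Mettl14 F, at chr3:123189971-123190597, held 10 and 8 tags in the KO libraries, 20 and 17 in del-cIDR, and 20 and 24 in WT. The KO libraries lay below all 4 others. Summed raw tags were 18 in KO (95% exact Poisson interval 10.7 to 28.4), 37 in del-cIDR (26.1 to 51.0) and 44 in WT (32.0 to 59.1). The KO interval did not reach that of WT in raw tags. These sums were not scaled between lists, so the gap between intervals may not hold for scaled height. On the linear scale KO was 0.482 times WT in scaled height, a difference of -1.05 ± 0.09 log2, and del-cIDR was separated above KO by 0.91 log2. Its percentile was 25.6 ± 2.30 in KO, 63.1 ± 5.69 in del-cIDR and 73.4 ± 1.55 in WT (SD, n = 2).

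Mettl14 D, at chr3:123173072-123173805, held 11 and 18 tags in the KO libraries, 22 and 35 in del-cIDR, and 31 and 28 in WT. In tags both KO libraries lay below the rest, while in scaled height they overlapped del-cIDR, with a difference from WT of -0.83 ± 0.82 log2, about the size of its own error. The summed tags were 29 in KO (95% exact Poisson interval 19.4 to 41.6) and 59 in WT (44.9 to 76.1). Mettl14 B, at chr3:123113924-123114668, held 11 and 7 tags in the KO libraries, 12 and 10 in del-cIDR, and 13 and 19 in WT. Both mutants were separated below WT there, by -0.60 ± 0.32 log2 in KO and -0.41 ± 0.31 log2 in del-cIDR, although the Poisson intervals of KO (10.7 to 28.4 tags) and WT (21.9 to 45.2 tags) overlapped. At Mettl14 A the groups overlapped.

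Over the 6 lettered regions of Mettl14, KO was separated below WT at 4, against 20.6% of all shared regions, and above at 1, against 40.6%. The median difference was -0.36 log2 for KO and -0.10 log2 for del-cIDR, against 0.09 and 0.02 over the 4872 shared regions of chromosome 3. With the 3 regions of at least 20 tags alone the KO median was -0.12 log2, and with regions under 20 tags alone it was -0.60 log2.

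**Figure D2:**
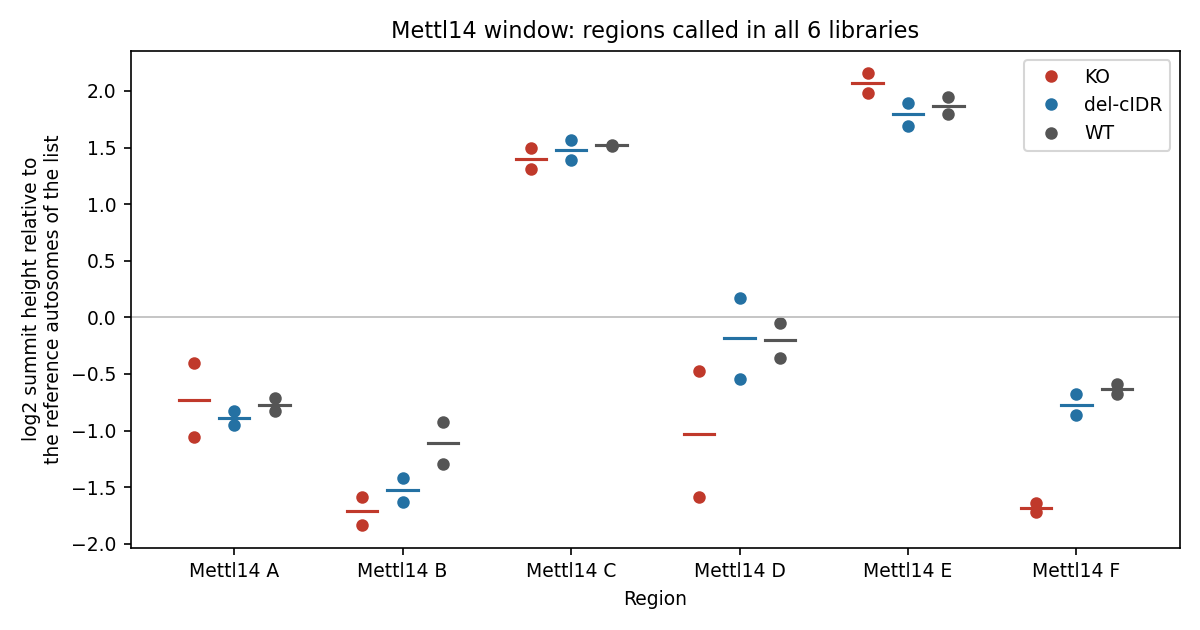
Scaled log2 summit height of the 6 Mettl14 regions called in every library, by position; points are libraries, short lines the means of 2 libraries, and the grey line marks the median of the scaling autosomes. KO points lie below both WT points at B, C, D and F and above them at E.

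Of 44 member regions called in both WT libraries, 7 were called in neither KO library, against 12.5% of all such regions in the series. By window these were 1 of 14 for Mettl3, 5 of 15 for Mettl14 and 1 of 15 for Wtap. The 5 in the Mettl14 window started at 123100225, 123126580, 123152579, 123162757 and 123225502, with 6 to 19 tags in WT. No KO library had a summit to set against these. The region at chr3:123152579-123152822 was called in both del-cIDR libraries, with 8 and 8 tags, against 11 and 9 in WT. The region at chr3:123209058-123209264, the tallest without a call in every library, had 16 tags in KO replicate 1, no call in KO replicate 2, 24 and 19 tags in del-cIDR, and 28 and 23 in WT. One region, chr3:123196919-123197269, went the other way, with 7 and 5 tags in KO and no call elsewhere. At chr3:123115893-123116057 a call was missing from del-cIDR, with 13 and 10 tags in KO and 10 in WT replicate 1. At chr3:123153612-123153940 it was also missing there, with 6 tags in KO replicate 2, and 8 and 11 in WT. The region at chr3:123229053-123229419 was called in both del-cIDR libraries, with 12 and 8 tags, and in WT replicate 1, with 10, but not in KO.

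In the Wtap window the del-cIDR mean of scaled height lay above the WT mean at 10 of 11 lettered regions, with the libraries separated at 6 of them. The means lay that way at 6 of 11 regions for Mettl3, 1 of 6 for Mettl14 and 51324 of the 99146 shared regions. The difference between windows was not tested. The direction was less even on the deposited fold. Its del-cIDR mean lay above the WT mean at Wtap A, B, C, E, J and K, but below it at D, F, G, H and I. The leading region of the Wtap window, Wtap C at chr17:13179004-13179906, held 227 and 188 tags in the KO libraries, 213 and 192 in del-cIDR, and 147 and 207 in WT. Scaled height was 2.85 ± 0.09 in KO, 2.68 ± 0.07 in del-cIDR and 2.36 ± 0.23 in WT (SD, n = 2), and no 2 genotypes overlapped. KO minus WT was 0.48 ± 0.25 log2 and del-cIDR minus WT 0.32 ± 0.24 log2. The spread comes from the WT libraries, and without WT replicate 1 the KO difference was 0.32 log2, against 0.65 log2 without WT replicate 2. On the deposited fold it was 0.17 log2, and del-cIDR minus KO, -0.16 log2 in height, was 0.012 log2. The summits lay at 13179326 and 13179322 in KO, at 13179326 and 13179326 in del-cIDR, and at 13179299 and 13179320 in WT, a spread of 27 bp. Its percentile of fold was 96.8 ± 1.33 in KO, 97.7 ± 1.30 in del-cIDR and 96.5 ± 1.30 in WT (SD, n = 2).

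Wtap H, at chr17:13226422-13227269 with summits from 13226684 to 13226765, held 249 and 181 tags in the KO libraries, 189 and 164 in del-cIDR, and 173 and 197 in WT. KO was separated above WT by 0.44 ± 0.04 log2, while del-cIDR overlapped WT at 0.04 ± 0.11 log2. Its percentile was 95.4 ± 1.37 in KO, 88.3 ± 2.55 in del-cIDR and 92.8 ± 0.528 in WT (SD, n = 2). Among shared regions only, its mean percentile was 86.9.

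**Figure D3:**
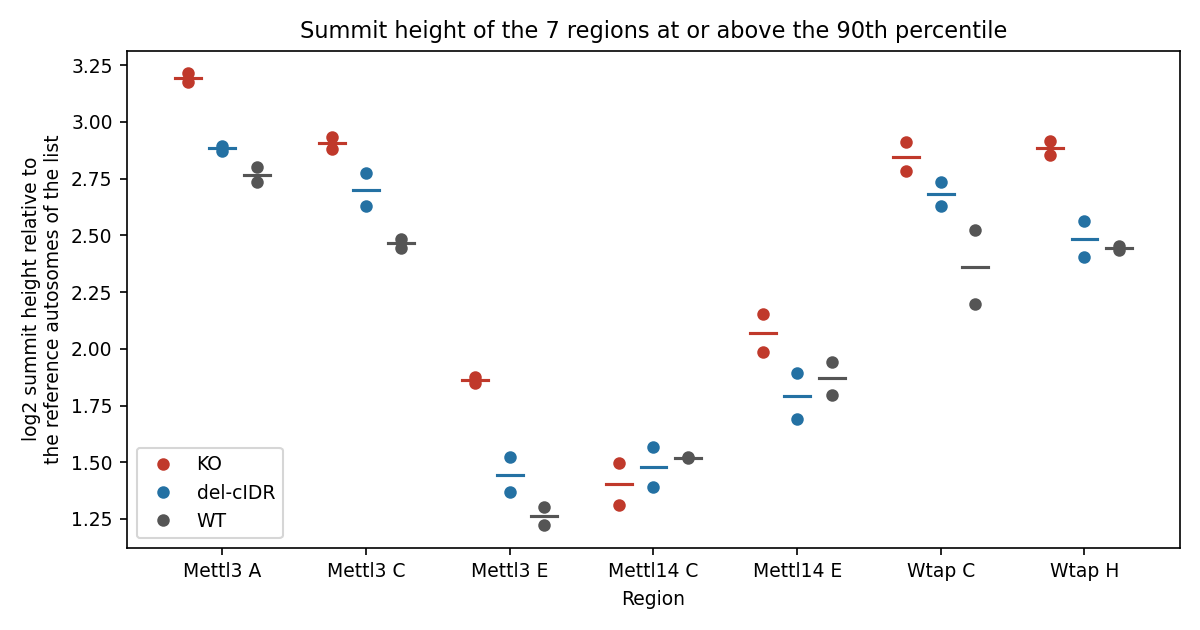
Scaled log2 summit height of the 7 member regions whose mean percentile of fold is at least 90; points are libraries and short lines the means of 2 libraries per genotype. KO lies above both WT libraries at 6 of the 7 regions and below them at Mettl14 C, where the values span 1.31 to 1.57.

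Wtap E and F, described because of their values, had the same order as Wtap C. Wtap E, at chr17:13210604-13211904 and 1301 bp wide, held 149 and 104 tags in the KO libraries, 105 and 104 in del-cIDR, and 82 and 107 in WT. Wtap F, at chr17:13217879-13218864, held 97 and 75 tags in the KO libraries, 73 and 79 in del-cIDR, and 60 and 63 in WT. KO minus WT was 0.65 ± 0.17 log2 at E and 0.71 ± 0.07 log2 at F, and del-cIDR minus WT was 0.27 ± 0.15 log2 at E and 0.41 ± 0.13 log2 at F. At Wtap G, chr17:13223398-13223855, KO was separated above WT by 0.14 ± 0.11 log2 in scaled height and del-cIDR overlapped it. The deposited fold went the other way at G, with 6.61 and 6.44 in KO, 6.52 and 6.73 in del-cIDR, and 7.75 and 7.26 in WT. On the fold both mutants thus lay below WT. Wtap D, at chr17:13206967-13207306, held 86 and 65 tags in the KO libraries, 89 and 79 in del-cIDR, and 78 and 104 in WT. Its groups overlapped in scaled height, with differences from WT of -0.03 ± 0.17 log2 in KO and 0.00 ± 0.19 log2 in del-cIDR. The deposited fold of Wtap D was 7.35 and 6.74 in KO, 9.12 and 7.93 in del-cIDR, and 9.14 and 10.92 in WT. On that measure both mutants lay below WT, del-cIDR replicate 1 only narrowly. Its 6 summits fell within 3 bp, the narrowest spread of the 28 regions, whose median was 74 bp against 69 bp over all shared regions.

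The low regions were less even. Wtap B, at chr17:13159019-13159697, held 35 and 28 tags in the KO libraries, 24 and 25 in del-cIDR, and 15 and 25 in WT, and on the linear scale KO was 1.91 times WT in scaled height. Wtap A, I, J and K held 6 to 33 tags per library, with KO separated below WT at A, above it at K and overlapping it at I and J.

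Over the 11 lettered Wtap regions, KO was separated above WT at 7, against 40.6% of all shared regions, and below at 1, against 20.6%. For del-cIDR it was 6 above, against 22.9%, and 1 below, against 21.3%. Medians were 0.48 log2 for KO and 0.32 log2 for del-cIDR, against 0.11 and 0.03 over the 4221 shared regions of chromosome 17. With the 8 regions of at least 20 tags the del-cIDR median was 0.18 log2, and on the deposited fold the KO median was 0.25 log2. The region at chr17:13161276-13161613 was called in WT, with 22 and 16 tags, in KO replicate 2, with 14, and in no del-cIDR library. The region at chr17:13240259-13240446 was called in both WT libraries, with 6 and 7 tags, and in no KO library. The region at chr17:13234808-13235167 was called in del-cIDR, with 8 and 12 tags, in WT replicate 1, with 8, and in no KO library.

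**Figure D4:**
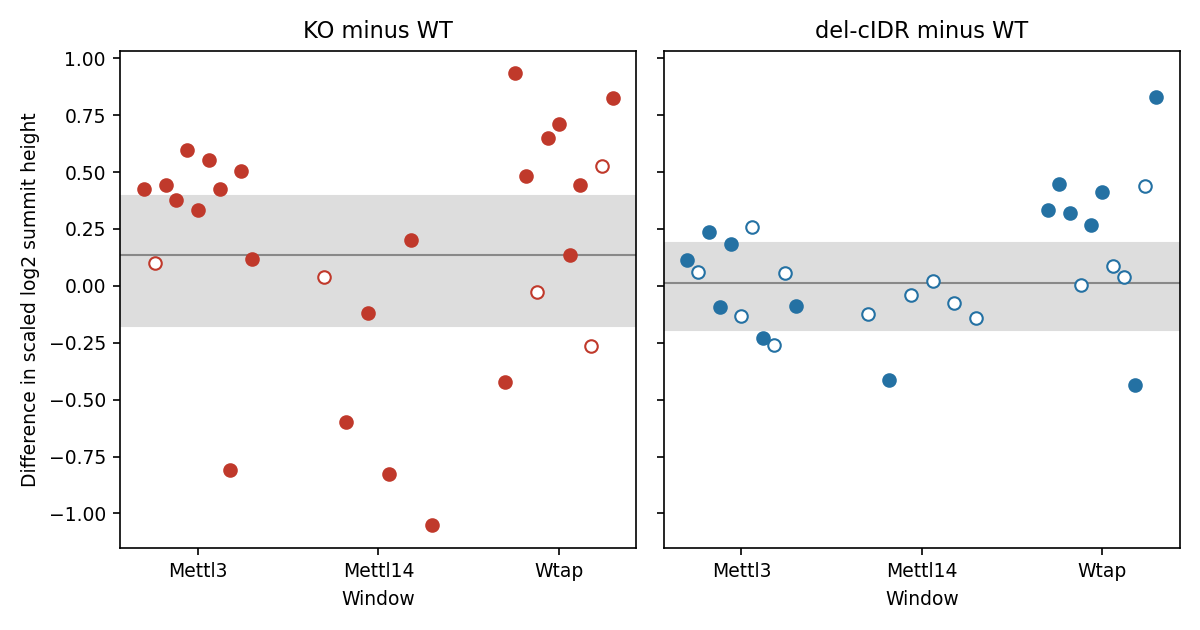
Difference from WT in scaled log2 summit height for the 28 shared member regions, by window and by position within it, for KO (left) and del-cIDR (right); filled points are separated from WT and open points overlap it. The grey band spans the quartiles and the grey line the median (0.13 for KO, 0.01 for del-cIDR) of all 99146 shared regions.

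Taking the 3 windows together, KO was separated above WT at 17 of 28 regions, against 40.6% of all shared regions, and below at 6, against 20.6%. For del-cIDR the counts were 9 above WT, against 22.9% of all regions, and 5 below, against 21.3%. Set against KO, del-cIDR was separated above at 3 regions, against 20%, and below at 14, against 39.5%. Of the 15003 regions with a mean percentile of at least 90, KO was separated above WT at 59.1% and below at 13.3%, and the 7 such members were above at 6 and below at 1. Their median KO minus WT was 0.44 log2, against 0.23 log2 over the 15003, and their median del-cIDR minus WT was 0.12 log2, against 0.06 log2. When scaled to regions of that rank, the KO minus WT medians became 0.24 log2 for Mettl3, -0.54 log2 for Mettl14 and 0.30 log2 for Wtap, and KO minus WT at Wtap C became 0.30 log2.

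In the 3 windows together, the shares of calls that split 2 genotypes lay near those of the genome. Of 44 member regions called in both WT libraries, the 7 without a KO call were 15.9%, against 12.5%, and the 4 without a del-cIDR call were 9.09%, against 9.20%. Of 36 called in both KO libraries, 1 was called in no WT library (2.78%, against 3.96%) and 3 in no del-cIDR library (8.33%, against 7.32%). Of 38 called in both del-cIDR libraries, 0 lacked a call in both WT libraries (against 1.92% of all such regions) and 4 lacked one in both KO libraries (10.5%, against 7.38%). With peaks of −log10 q of at least 5 only, WT calls without a KO call numbered 2 and those without a del-cIDR call 2, and with equal list lengths they numbered 3 and 1. KO and del-cIDR were set against the same WT libraries, so their differences from WT share the error of those libraries.

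The fold by which peaks are ranked is a ratio to the local background, so by definition it depends on it. That background was high at several members. Averaged over the lists, the height percentile was 91.3 at Wtap D and 94.5 at Wtap E, while the fold percentile was 59.7 at D and 70.1 at E. Wtap G, with a mean summit of 75.5 tags, had a fold percentile of 47.9. The local background solved at D, E and G was 8.97, 9.55 and 10.1 tags on average, at or above that of 95.2% or more of all shared regions. Mettl3 D was similar, with a height percentile of 81.2, a fold percentile of 46.0 and a background of 6.56 tags. Mettl14 E ranked higher by fold than by height, with a height percentile of 95.5 and a fold percentile of 99.8. Its background of 3.06 tags was still above the median of 2.09 tags over all shared regions. Column 7 percentiles thus order the writer regions differently from summit height, and Mettl3 A, with the tallest summit of the 28 at a mean of 243 tags, ranked below Mettl14 E, with 119.

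**Figure D5:**
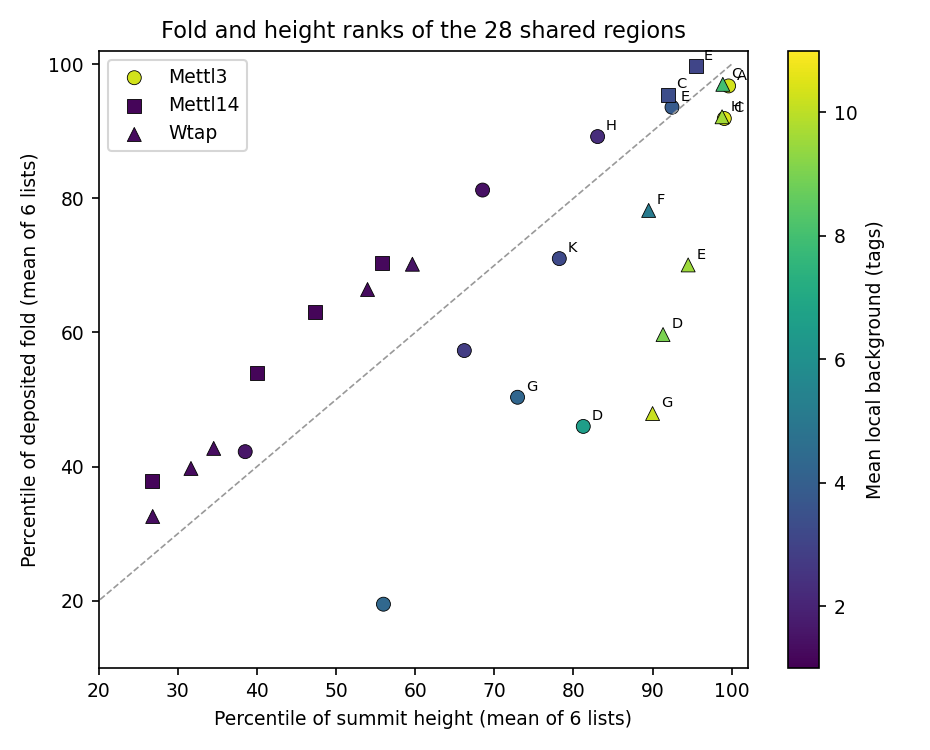
Percentile of the deposited fold against percentile of summit height for the 28 shared member regions, each the mean of 6 lists; shape gives the window and colour the mean local background in tags, and letters are given to the taller regions. Regions with a high local background, such as Wtap D, E and G, lie below the dashed line of equal rank, and Mettl14 E lies above it.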

How the data were processed

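Accessibility was measured by ATAC-seq in 6 libraries, 2 per genotype, grouped by sample title. Per the submitters' processing notes, the authors used fastp, BWA, SAMtools, Picard, MACS2 and featureCounts on GRCm39; the sources used here do not give versions, settings or any shift to the cut site. The authors deposited 1 unpooled peak list per library, with a fold (a ratio of summit pileup to local background), −log10 of the p-value and q-value, a score of 10 times −log10 q, and a summit position. No listed q-value was above 0.05, so a region without a call may still be open.

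The total read count per library was not used here. Summit height and local background were solved from fold and p under the MACS2 Poisson form, within 0.1 of a whole tag in 100% of 1016776 peaks; the solver was tested on simulated data. Peaks of all lists were merged at 1 bp of overlap, and the tallest peak of a library stood for it in a region. Python 3.11.15, numpy 2.4.6, pandas 2.3.3 and scipy 1.17.1 were used. The spike-in sequence named dm was left out. Chromosomes 6, 8 and 11 stood apart between libraries in earlier results and were left out of the scaling.

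Named in full were regions with a mean percentile of at least 90 and those that both libraries of a genotype called and neither of another did. Parts of the plan that need gene starts (within 500 bp) could not be applied, because the RefSeq tables are on GRCm38.p6. Among these were other writer genes, cell type markers, genes of like pattern and scaling to promoters. Where the plan named a promoter, the leading region of each window, with the highest mean percentile, was described instead. A leading region may belong to a neighbouring gene, so its values are not promoter values of the member. Other regions were named after their values were seen. Members, lists and tests were chosen with earlier results of these data known. Alternatives were peaks with −log10 q of at least 5, equal list lengths, an overlap of 50% of the shorter peak, other scalings, the log2 of the deposited fold, regions of at least 20 tags, and each library left out.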

Additional observations from a re-analysis of the deposited data

Results flagged for a closer look

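At 4 regions, both KO libraries lay on one side of the WT mean in scaled height and both del-cIDR libraries on the other. The share of all shared regions with this pattern was not counted, so the number is not read as unusual. At Mettl3 H, KO differed from WT by 0.42 ± 0.01 log2 and del-cIDR by -0.23 ± 0.06 log2. At Mettl3 D, chr14:52521593-52522044, these were 0.38 ± 0.06 log2 for KO and -0.095 ± 0.067 log2 for del-cIDR. At Mettl3 K, chr14:52580503-52581753, they were 0.12 ± 0.03 log2 for KO and -0.087 ± 0.034 log2 for del-cIDR. At Wtap A, chr17:13143632-13144158, KO differed by -0.42 ± 0.51 log2 and del-cIDR by 0.33 ± 0.34 log2, on summits of 6 to 19 tags. Both differences were smaller than their errors there, and KO replicate 1 and WT replicate 1 each held 13 tags. The difference between the mutants was not tested at any of them.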

How the results depend on the processing

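With −log10 q of at least 5, regions that split 2 genotypes (called in every library of the first and no library of the second) numbered 0 for KO not WT, 2 for WT not KO, 1 for del-cIDR not WT, 2 for WT not del-cIDR and 1 for del-cIDR not KO. With equal list lengths, WT not KO gave 3, del-cIDR not WT 2 and WT not del-cIDR 1. At the leading region of Mettl3, KO minus WT was 0.49 scaled to its chromosome, 0.23 on the log2 of the deposited fold and 0.24 scaled to regions at or above the 90th percentile; del-cIDR minus KO was -0.24 scaled to all shared regions, and -0.37, -0.14 and -0.17 in the order above. At that of Mettl14, KO minus WT was 0.018 with the 90th percentile scaling. At that of Wtap, the fold gave 0.17 for KO minus WT and 0.012 for del-cIDR minus KO, which turned round, and the 90th percentile scaling gave -0.027 for the second; the cause was not tested. By window, the fold gave medians of 0.20 (KO minus WT), -0.026 (del-cIDR minus WT) and -0.14 (del-cIDR minus KO) for Mettl3, and of 0.25 and 0.16 against WT for Wtap. The 90th percentile scaling gave 0.24 for Mettl3, -0.54 for Mettl14 and 0.30 for Wtap in KO minus WT, and -0.027 in del-cIDR minus KO for Wtap. Regions of at least 20 tags gave -0.12 for Mettl14 in KO minus WT and 0.18 for Wtap in del-cIDR minus WT. Separated counts became 0 for Mettl14 KO above WT (all shared regions, and the 90th percentile scaling), 2 for KO below WT at 20 tags, all of them in Mettl14, 10 for del-cIDR below WT (90th percentile), and 5 (all shared regions), 6 (fold), 8 (90th percentile) and 0 (20 tags) for del-cIDR above KO. Percentiles of the leading regions of Mettl3, Mettl14 and Wtap were 94.5, 99.6 and 94.9 among shared regions, 99.6, 97.4 and 99.0 by −log10 q, and 99.6, 95.5 and 98.9 by height.

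Leaving out each library in turn gave 29 to 31 regions called in all others, 1 to 6 for KO not WT, 10 to 13 for WT not KO, 0 to 3 for del-cIDR not WT, 7 to 9 for WT not del-cIDR, 5 to 8 for del-cIDR not KO and 4 to 10 for KO not del-cIDR, since fewer libraries must then share a state. Leading regions of Mettl3, Mettl14 and Wtap then gave KO minus WT of 0.39 to 0.46, 0.12 to 0.29 and 0.32 to 0.65, del-cIDR minus WT of 0.08 to 0.15, -0.18 to 0.03 and 0.16 to 0.48, and del-cIDR minus KO of -0.33 to -0.29, -0.38 to -0.18 and -0.23 to -0.10. Window medians gave KO minus WT of 0.34 to 0.42, -0.39 to -0.25 and 0.42 to 0.53, del-cIDR minus WT of -0.064 to 0.082, -0.18 to -0.09 and 0.16 to 0.35, and del-cIDR minus KO of -0.34 to -0.26, 0.02 to 0.23 and -0.29 to -0.10. Separated regions numbered 18 to 19 for KO above WT, 6 to 8 for KO below WT, 10 to 14 for del-cIDR above WT, 8 to 10 for del-cIDR below WT, 5 to 7 for del-cIDR above KO, 15 to 18 for del-cIDR below KO, and 1 to 2 above and 4 to 5 below for KO in the Mettl14 window. The separated counts could only stay or rise, since fewer libraries must then lie apart, so their ranges do not measure stability. Percentiles were 96.6 to 97.0, 99.7 to 99.8 and 96.7 to 97.3.

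No paired analysis was possible because the results come from no test and the replicate numbers only name libraries. The 90th percentile scaling, the 20 tag minimum, the height percentiles, and all settings for window medians and separated counts were chosen after seeing the data. Scaling to promoters was not run, as gene starts of the files' build were not used here. Low summits limit the precision of the low regions.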
